A study of Mus musculus with 8 samples.

Results

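The genes described here are 10 genes of the antioxidant response and of metal binding: Hmox1, Srxn1, Txnrd1, Gclc, Gclm, Nqo1, Sod2, Gpx3, Mt1 and Mt2. They were chosen by name. Each was read from its brightest probe among those that matched a RefSeq transcript of the gene and passed the scanner's background test on 4 or more of the 8 arrays. All 10 had such a probe, out of 15156 genes with a symbol and a retained probe, and all 10 probes were well above background on 8 arrays with no saturated spot. The mice were C57BL\6 males. In the MI group (n = 4), the anterior interventricular artery was permanently occluded. The sham group (n = 4) had the same operation without ligation, and the ventricles of both groups were taken 24 hours later. Total RNA of each mouse was labeled with Cy3 and hybridized to 1 Agilent SurePrint G3 mouse array, so the values describe whole ventricles, in which infarcted and surviving muscle, other heart cells and blood cells were mixed. In such tissue, more cells of a type and more RNA per cell cannot be told apart.

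Cells meet oxidants and electrophiles with a set of enzymes that is largely switched on by the transcription factor NRF2 (gene Nfe2l2), which binds antioxidant response elements with a small MAF partner and is kept low by KEAP1. The heme-binding repressor BACH1 holds some of the same genes down. Metallothioneins are small cysteine-rich proteins that bind zinc and copper, and the zinc sensor MTF1 drives them through metal response elements. Both systems are known to respond to ischemia and to the inflammation that follows an infarct.

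Of the 10 genes, 3 were higher in MI hearts and past the threshold: Hmox1, Txnrd1 and Srxn1. None was lower and past it, nor was any lower at an unadjusted p under 0.05 or by significance analysis of microarrays (SAM), and SAM called the same 3 genes higher. A gene was said to rise or fall when the p of limma was under 0.05 after Benjamini-Hochberg adjustment over the 34038 retained probes. Over all 15156 genes, each read from 1 probe, 5.69% rose and 0.851% fell. The 3 genes also exceeded a 2-fold difference, and 4.66% of all genes both rose and exceeded it. The MI and sham values did not overlap for 4 of the 10 genes, the 3 named and Mt2, always with MI higher, against 8.96% of all genes. The 10 genes had a median difference of 0.74 on the log2 scale, and all genes had a median of 0.071. Neutrophil markers moved between the same groups, with 9 of 10 higher and a median of 3.05.

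**Figure D1:**
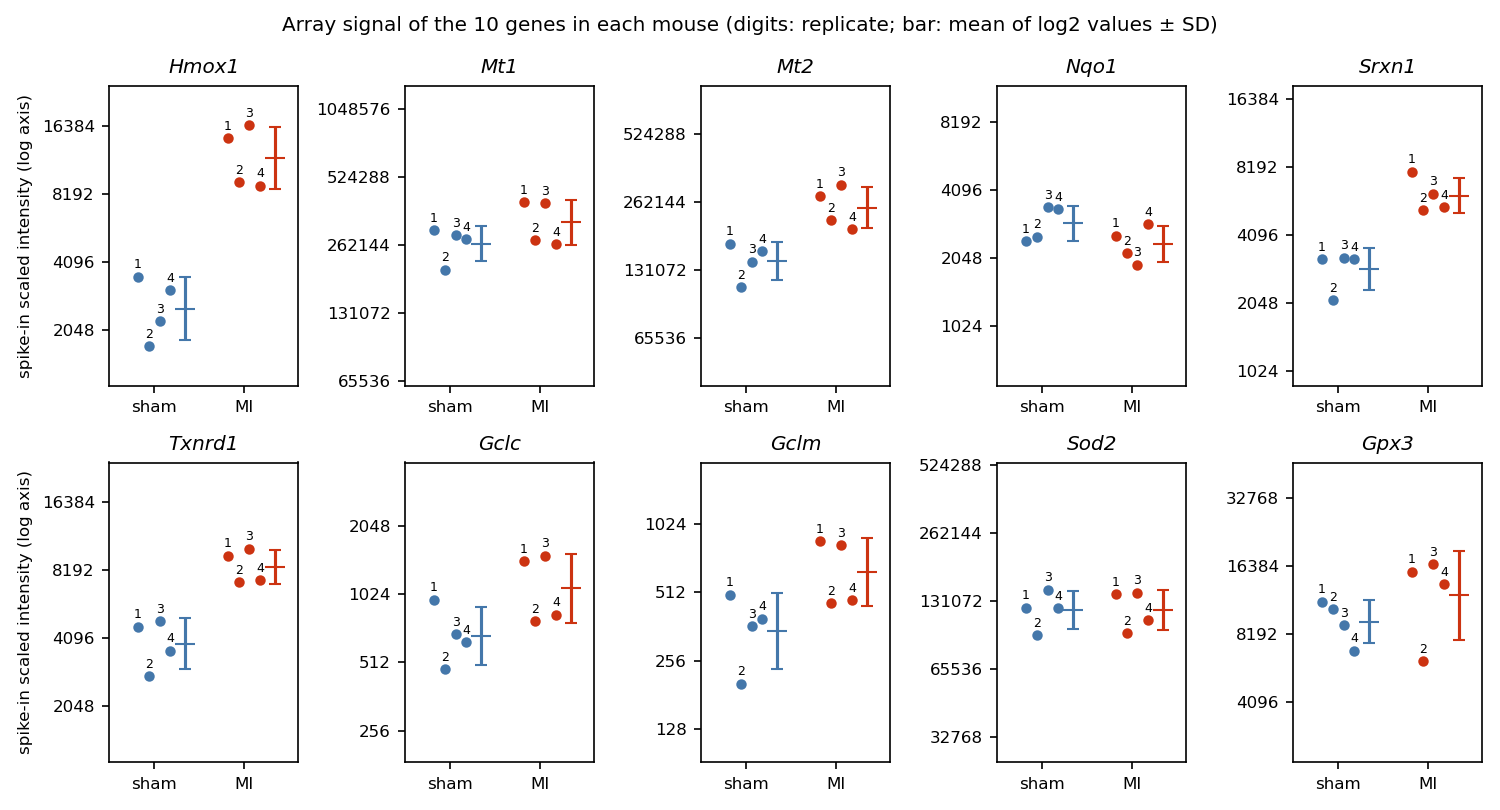
Spike-in scaled array intensity (vertical, log axis that spans the same number of doublings in every panel) of the 10 genes in 4 sham (blue) and 4 MI (red) mice; digits give the replicate, and the bar is the mean of log2 values with its SD. The groups are apart for Hmox1, Mt2, Srxn1 and Txnrd1 and overlap for the other 6 genes.

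Scaling between arrays moved these counts. The values were shifted by the spike-in RNA added to each sample before labeling. Scaled instead to the 75th percentile of each array, all retained probes together had a median difference of -0.01, against 0.11 with spike-in scaling, and 5 of the 10 genes rose, now with Mt2 and Gclm, against 10.4% of genes. The split of all calls moved as well, since 86.7% of the called probes were higher in MI with spike-in scaling and 51.4% with the 75th percentile. The differences below are given with spike-in scaling unless another scale is named, and stand beside that median of 0.11 over all probes.

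Hmox1 encodes heme oxygenase 1, the inducible enzyme that breaks heme down to biliverdin, iron and carbon monoxide. Its intensity was 14394, 9189, 16400 and 8886 in MI replicates 1 to 4, and 3522, 1731, 2235 and 3073 in sham replicates 1 to 4. The lowest MI mouse stood above the highest sham mouse. Hmox1 rose by 2.21 ± 0.28 on the log2 scale (SE, adjusted p = 0.000102), which is 4.63-fold with a 95% confidence interval from 3.05 to 7.04. It was the largest difference among the 10 genes.

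Hmox1 was the only one of the 10 with another probe on the array. This dimmer probe read 1577, 742, 1858 and 785 in the MI mice and 393, 183, 264 and 253 in the sham mice. It rose by 2.12 ± 0.32 on the log2 scale (SE, adjusted p = 0.000503). Both probes thus had MI replicates 1 and 3 at the top and sham replicate 2 at the bottom.

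The list on heme breakdown and iron storage held Hmox2 (the constitutive heme oxygenase), the biliverdin reductases Blvra and Blvrb, and the ferritin subunits Fth1 and Ftl1, and none of the 5 passed in limma, at an unadjusted p under 0.05 or in SAM. Their differences ran from -0.18 to 0.30 on the log2 scale. The median of the list was 0.09 with spike-in scaling and changed sign, to -0.03, with the 75th percentile.

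Srxn1 encodes sulfiredoxin, which reduces overoxidized peroxiredoxins. Its intensity was 7788, 5265, 6232 and 5439 in MI replicates 1 to 4, and 3204, 2102, 3247 and 3197 in sham replicates 1 to 4. All MI values were above all sham values, and sham replicate 2 was far below the other sham mice. Srxn1 rose by 1.08 ± 0.24 on the log2 scale (SE, adjusted p = 0.0119), or 2.11-fold with a 95% confidence interval from 1.48 to 3.00. Without MI replicate 1 the difference was 0.96 and no longer passed (adjusted p = 0.0523), and without sham replicate 2 it was 0.93, which is below 2-fold (adjusted p = 0.0424).

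Txnrd1 encodes the cytosolic thioredoxin reductase, a selenoprotein that returns thioredoxin to its reduced form with NADPH. Its intensity was 9450, 7217, 10136 and 7351 in the MI mice and 4593, 2772, 4852 and 3592 in the sham mice. The groups were again apart. Txnrd1 rose by 1.13 ± 0.25 on the log2 scale (SE, adjusted p = 0.0106), or 2.19-fold with a 95% confidence interval from 1.52 to 3.15. Without sham replicate 2 its difference was 0.97 (adjusted p = 0.0380).

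For Txnrd1, most of the spread among the MI mice came in with the scaling. The deposited Txnrd1 intensities, before any shift, were 9056, 9098, 9094 and 8552 in the MI mice, with an SD of 0.04 on the log2 scale. After the spike-in shift that SD was 0.25. In the sham mice it went the other way, from 0.43 to 0.37. The wider MI spread was not particular to Txnrd1. Among the genes described here, the MI SD rose with the shift in all but Nqo1, where it fell from 0.40 to 0.26. In Sod2 it rose from 0.07 to 0.29.

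Of 14 further genes of the thioredoxin system, which included the thioredoxins Txn1 and Txn2, the mitochondrial reductase Txnrd2 and the peroxiredoxins Prdx1 to Prdx6, none passed in limma or SAM, and 1 had an unadjusted p under 0.05. That was Sesn2, a stress-induced sestrin, which had the largest difference of them, 0.92 ± 0.29 on the log2 scale (SE, adjusted p = 0.0862). The median of the list was 0.02, and -0.10 with the 75th percentile. With that scaling, which called 11.9% of all genes lower, Sesn2 was called higher and Txnrd2 and Prdx4 lower.

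The stretch upstream of Srxn1 is shown because this gene had one of the 3 differences that passed. It covers the 250 bases before the annotated start, chr2:152105274-152105523, plus strand, from RefSeq on GRCm38.p6. Promoters were given for 8 of the 10 genes, not for Hmox1 and Gclc. Searched on both strands was TGACNNNGC, a form of the core of the antioxidant response element. TGAGTCA (the TRE, which AP-1 and NRF2 with small MAF can bind) was searched as well. So were TGCACNC and TGCGCNC (the core of the metal response element). TGACTCAGC meets the first and, on the other strand, the second. Capitals mark every match.
Srxn1: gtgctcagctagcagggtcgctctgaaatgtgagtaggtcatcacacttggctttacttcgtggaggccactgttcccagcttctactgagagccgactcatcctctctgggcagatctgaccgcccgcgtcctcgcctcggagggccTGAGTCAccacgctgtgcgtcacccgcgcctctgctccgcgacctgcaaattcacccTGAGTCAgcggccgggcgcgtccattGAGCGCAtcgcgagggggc

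Upstream of Srxn1 there were 2 matches to TGAGTCA, beginning 102 and 45 bases before the start. Among 32851 promoter windows of the same length, 4.46% held that motif. There was no match to TGACNNNGC, which 10.2% of windows held. A match to TGCGCNC, found in 12.5% of windows, began 19 bases before the start on the minus strand. Txnrd1 had 3 annotated starts, and 1 of these windows held TGACNNNGC. The windows of Sod2 and Gpx3 held none of the motifs.

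Gclc and Gclm encode the catalytic and the modifier subunit of glutamate-cysteine ligase, the rate-limiting enzyme of glutathione synthesis. Gclc intensity was 1431, 779, 1518 and 832 in the MI mice and 971, 478, 685 and 630 in the sham mice. Gclm intensity was 863, 458, 829 and 472 in the MI mice and 501, 202, 362 and 392 in the sham mice. In both genes MI replicates 2 and 4 lay below sham replicate 1, so the groups overlapped.

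The difference was 0.70 ± 0.29 for Gclc (log2, SE, adjusted p = 0.204) and 0.86 ± 0.31 for Gclm (adjusted p = 0.136), and neither passed. With the 75th percentile, Gclm was 0.73 ± 0.22 (adjusted p = 0.0476) and Gclc was 0.58 ± 0.18 (adjusted p = 0.0596). Within each array, Gclm minus Gclc was -0.80 ± 0.06 in MI and -0.95 ± 0.23 in sham mice (log2, SD, n = 4 each). That gap between the subunits did not differ beyond the spread between mice (exact two-sided permutation p = 0.229). The Gclm window held 1 match to TGACNNNGC, and 2 to TGCGCNC beginning 138 and 72 bases before the start on the minus strand.

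Of 17 further genes of glutathione synthesis and use, 2 rose and none fell. At an unadjusted p under 0.05, 3 were higher and none lower, and SAM called 1 higher, which was Glrx. Glrx, a glutaredoxin that removes glutathione from proteins, read 1721, 1572, 1898 and 1995 in MI and 825, 726, 1134 and 845 in sham mice, with no overlap. It rose by 1.04 ± 0.23 on the log2 scale (SE, adjusted p = 0.0106). Slc3a2, the heavy chain of amino acid carriers such as the cystine importer, rose by 0.94 ± 0.26 (adjusted p = 0.0409) and did not overlap either. Gsr, glutathione reductase, was at 0.78 ± 0.24 (adjusted p = 0.0712) and passed before adjustment but not after it. In the normalized values of the authors Gsr passed, at 0.77 ± 0.21 (adjusted p = 0.0340). With the 75th percentile it did not (adjusted p = 0.0511). The light chain of that importer, Slc7a11, was well above background on too few arrays to be tested. The median of the 17 genes was -0.16, against 0.071 over all genes.

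Nqo1 encodes a quinone reductase that is often used as a readout of NRF2. Its intensity was 2568, 2147, 1911 and 2887 in the MI mice and 2428, 2540, 3428 and 3371 in the sham mice. The groups overlapped, with MI replicate 3 lowest of all. The difference was -0.31 ± 0.24 on the log2 scale (SE, adjusted p = 0.580), with a 95% confidence interval from -0.81 to 0.19. The upper end of that interval lies below the 3 estimates that passed. The Nqo1 window held none of the motifs, which says only that these letters are not in it.

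Sod2, the mitochondrial manganese superoxide dismutase, read 139970, 94195, 142398 and 107487 in MI and 122196, 92331, 146977 and 121801 in sham mice. The MI range lay within the sham range, and the difference was -0.00 ± 0.24 on the log2 scale (SE, adjusted p = 1.00), with a 95% confidence interval from -0.51 to 0.51. Gpx3, the secreted plasma glutathione peroxidase, read 15464, 6245, 16724 and 13591 in MI and 11390, 10560, 8964 and 6919 in sham mice. MI replicate 2 was the lowest of the 8 and the other 3 MI mice were the highest. Its difference was 0.39 ± 0.30 (SE, adjusted p = 0.586), with a 95% confidence interval from -0.25 to 1.03. Without MI replicate 2 it was 0.71 ± 0.22 (adjusted p = 0.0813) and did not pass either.

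Among 10 other genes listed for superoxide, peroxide and quinones, Osgin1 alone passed the test. Osgin1 is an oxidative stress-induced growth inhibitor and is no antioxidant enzyme itself. It read 1202, 920, 1236 and 908 in MI and 420, 240, 454 and 547 in sham mice, and it rose by 1.41 ± 0.27 on the log2 scale (SE, adjusted p = 0.00385). The median of these 10 genes was -0.12. Sod1, Sod3 and catalase (Cat) were between -0.15 and 0.07. With the 75th percentile, Nqo2, Cbr1, Aox1 and Ephx1 were called lower, as were 11.9% of all genes. With spike-in scaling their differences were -0.48, -0.45, -0.76 and -0.62 and did not pass.

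NADPH feeds both the thioredoxin and the glutathione branch. Of 7 tested genes of its supply, G6pdx rose. It encodes the entry enzyme of the pentose phosphate pathway and read 1890, 1258, 2065 and 1661 in MI and 1300, 668, 876 and 831 in sham mice, where MI replicate 2 lay below sham replicate 1. The difference was 0.92 ± 0.26 on the log2 scale (SE, adjusted p = 0.0471). It did not pass when the arrays were scaled with a variance-stabilizing (vsn) model fitted on the spike-in spots (adjusted p = 0.0588), and SAM called none of the 7 genes. Pgd, an enzyme further along the same pathway, was at 0.75 ± 0.25 (adjusted p = 0.101). Nnt had no matching probe.

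**Figure D2:**
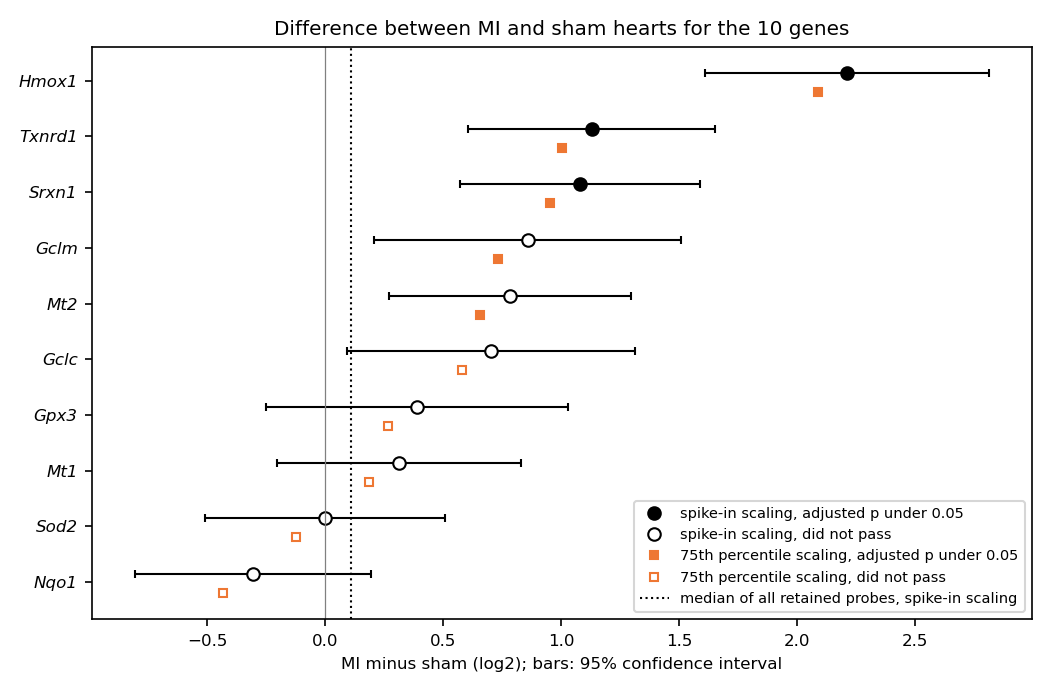
MI minus sham on the log2 scale (horizontal) for each of the 10 genes, with 95% confidence intervals for spike-in scaling (circles) and the estimate with 75th percentile scaling (squares); filled marks had an adjusted p under 0.05, and the dotted line is the median of all retained probes, 0.11. Hmox1 stands apart at 2.21, followed by Txnrd1 at 1.13 and Srxn1 at 1.08, and Nqo1 is lowest at -0.31.

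Mt1 and Mt2 are the widely expressed metallothioneins, and their genes are neighbors on chromosome 8 with no other annotated gene starting between them. Mt1 intensity was 404808, 274648, 402695 and 264893 in the MI mice and 304800, 204357, 289041 and 277474 in the sham mice. MI replicates 2 and 4 fell inside the sham range. The difference was 0.31 ± 0.24 on the log2 scale (SE, adjusted p = 0.589), with a 95% confidence interval from -0.20 to 0.83.

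Mt2 intensity was 277685, 217483, 311742 and 197986 in the MI mice and 171255, 110027, 142525 and 158529 in the sham mice. Here every MI mouse was above every sham mouse. The difference was 0.78 ± 0.24 on the log2 scale (SE, adjusted p = 0.0754), or 1.72-fold with a 95% confidence interval from 1.21 to 2.45, and it did not pass. With the 75th percentile it was 0.66 ± 0.15 and passed (adjusted p = 0.0202). It also passed in the normalized values of the authors, at 0.77 ± 0.21 (adjusted p = 0.0355).

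The difference between both genes within an array is not touched by a shift of the whole array. Mt2 minus Mt1 was -0.54, -0.34, -0.37 and -0.42 in MI replicates 1 to 4, and -0.83, -0.89, -1.02 and -0.81 in sham replicates 1 to 4, on the log2 scale. The MI values were all higher, with a mean of -0.42 ± 0.09 against -0.89 ± 0.10 (SD, n = 4 each). The shift of 0.47 had an exact two-sided permutation p of 0.0286, the smallest that 4 against 4 mice allow, and 0.0571 after adjustment over the 2 pairs compared. These pairs were chosen with their values known. The adjusted value did not pass, and a ratio does not say how much either gene changed.

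**Figure D3:**
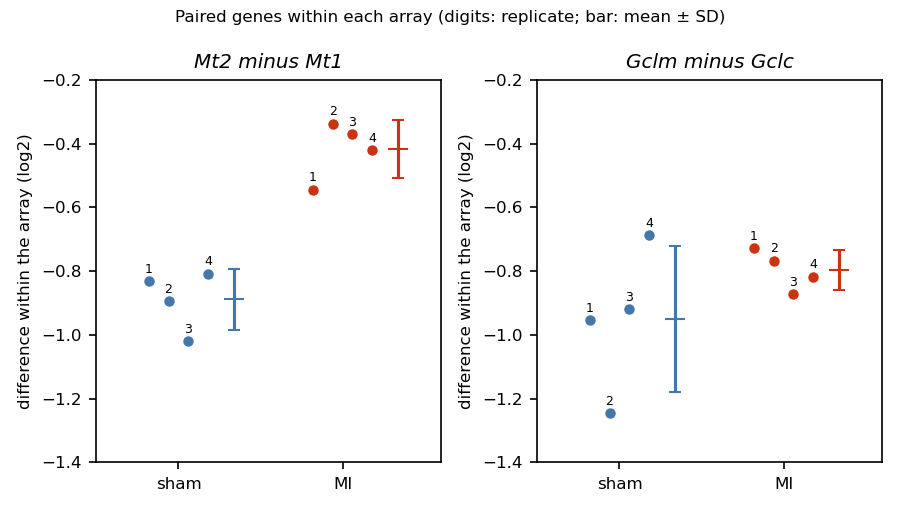
Difference between 2 probes within each array (vertical, log2) for Mt2 minus Mt1 and Gclm minus Gclc in 4 sham (blue) and 4 MI (red) mice; digits give the replicate, and the bar is the mean with its SD. Mt2 minus Mt1 is between -0.54 and -0.34 in MI and between -1.02 and -0.81 in sham mice, and Gclm minus Gclc overlaps.

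The windows upstream of the metallothioneins are shown because both genes lie side by side and only Mt2 had groups that did not overlap. They are the 250 bases before each start on the plus strand (RefSeq, GRCm38.p6), chr8:94178839-94179088 for Mt1 and chr8:94172368-94172617 for Mt2. Capitals mark matches to the same motifs, and overlapping matches run together.
Mt1: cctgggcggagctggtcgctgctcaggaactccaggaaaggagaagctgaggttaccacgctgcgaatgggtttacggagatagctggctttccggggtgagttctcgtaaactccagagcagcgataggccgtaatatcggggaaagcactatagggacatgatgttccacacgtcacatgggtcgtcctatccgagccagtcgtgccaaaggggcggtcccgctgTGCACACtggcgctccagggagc
Mt2: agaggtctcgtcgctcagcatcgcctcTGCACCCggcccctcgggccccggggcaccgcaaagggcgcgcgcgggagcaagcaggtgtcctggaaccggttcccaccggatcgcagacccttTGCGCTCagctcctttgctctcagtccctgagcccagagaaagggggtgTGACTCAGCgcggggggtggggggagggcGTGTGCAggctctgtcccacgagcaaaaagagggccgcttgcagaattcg

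The Mt2 window held 3 metal response element cores, 2 of TGCACNC and 1 of TGCGCNC. It also held TGACTCAGC, which begins 79 bases before the start and meets both TGACNNNGC and TGAGTCA. The Mt1 window held 1 match to TGCACNC, beginning 23 bases before the start. At least 1 core was found in 21.4% of all windows and 3 or more in 1.26%. The bases after each annotated start were not searched. The 3 cores against 1 are thus a count over these windows and not over the whole promoters.

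Of the other genes on metallothioneins and zinc transport, none of 5 passed in limma or SAM. Mt4, Slc39a10 and the zinc importer Slc39a14 had differences of 0.70, 0.70 and 0.71 on the log2 scale, which were the 3 with an unadjusted p under 0.05, and the zinc exporter Slc30a1 was at -0.26. Signal was low for Mt4, between 34 and 78 over the mice, and for Slc39a10, between 73 and 235. With the vsn model these 2 differences were 0.15 and 0.27, and that of Slc39a14 was 0.66. Mt3, the metallothionein known from brain, was at 0.16. The median of the list was 0.70, and with the 75th percentile Mt4 and Slc39a14 were called higher.

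None of the 9 transcriptional regulators passed at the RNA level in limma or SAM. Nfe2l2 was at 0.32 ± 0.25 on the log2 scale (SE, adjusted p = 0.585), Keap1 at 0.17, Bach1 at -0.10 and Mtf1 at -0.13. The small MAF genes were at 0.27 (Maff), 0.54 (Mafg) and 0.66 (Mafk), the latter 2 with an unadjusted p under 0.05, and Mafk was called higher with the 75th percentile. Array signals do not report on the protein or the location of these factors.

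Over all 7 lists, 4 of 67 tested genes rose and none fell, where 5.69% and 0.851% of all genes did. At an unadjusted p under 0.05, 12 were higher and 3 lower, and SAM called 2 higher and none lower. The shares of all genes at that unadjusted p and by SAM were not counted. Of the retained probes, SAM called 1455, both directions together. The unadjusted and SAM counts, here and for each list, thus have no background share of genes beside them. The median of the 67 was 0.03 on the log2 scale, against 0.071 over all genes. With the 75th percentile it was -0.09, against -0.054 over all genes, and 9 of the 67 were called higher and 6 lower, where 10.4% and 11.9% of all genes were. The count with spike-in scaling was easily moved by single mice. It was 8 without MI replicate 2 and 2 without MI replicate 1, 3 or 4 or without sham replicate 2 or 4.

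**Figure D4:**
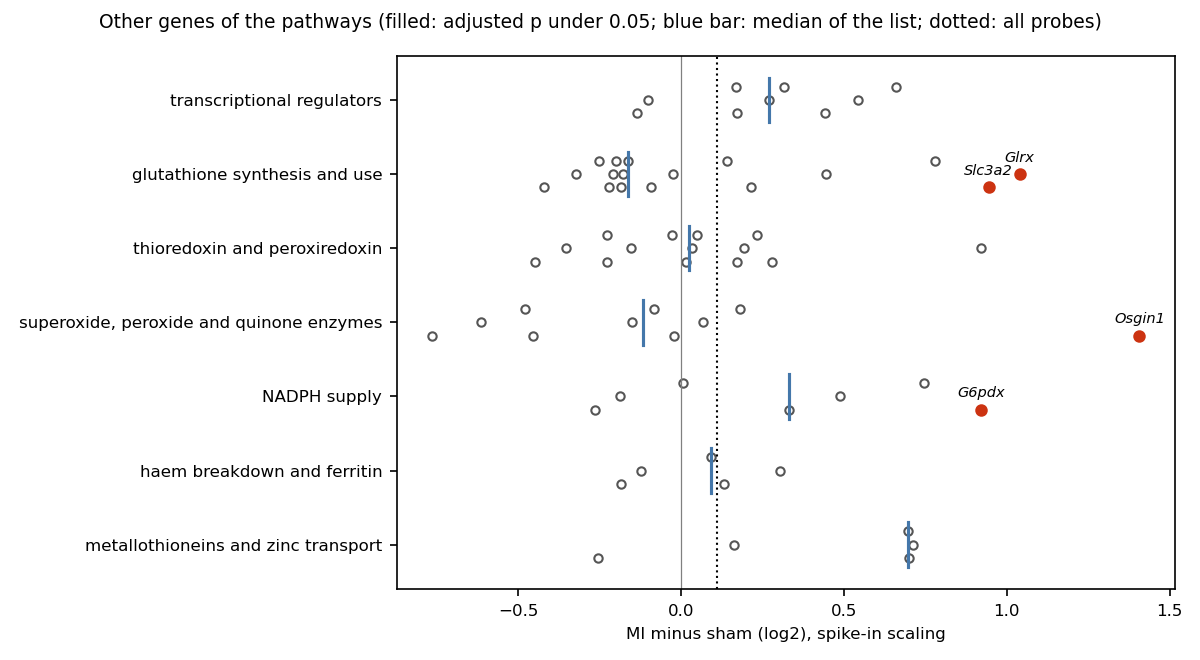
MI minus sham on the log2 scale (horizontal, spike-in scaling) for the 67 tested genes of 7 pathway lists; filled red points are the 4 genes with an adjusted p under 0.05, the blue bar is the median of each list, and the dotted line is the median of all retained probes. Slc3a2, Glrx, Osgin1 and G6pdx lie between 0.92 and 1.41, and most other genes lie within 0.5 of 0.

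The order of the mice within a group was counted over the 10 genes and over all probes. MI replicates 1 and 3 were the highest MI mice in 9 of the 10 genes, all but Nqo1. Over all retained probes this was so in 65.1%, and with the 75th percentile in 4 of the 10 genes and in 26.0% of probes. Sham replicate 2 was the lowest sham mouse in 8 of the 10 genes and in 70.5% of all probes, and with the 75th percentile in 3 of the 10 genes and in 24.2% of probes. The 75th percentile of the arrays, taken after the spike-in shift, ran from -0.38 in sham replicate 2 to 0.29 in MI replicate 3 on the log2 scale. Its part in the order of the mice was not tested.

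**Figure D5:**
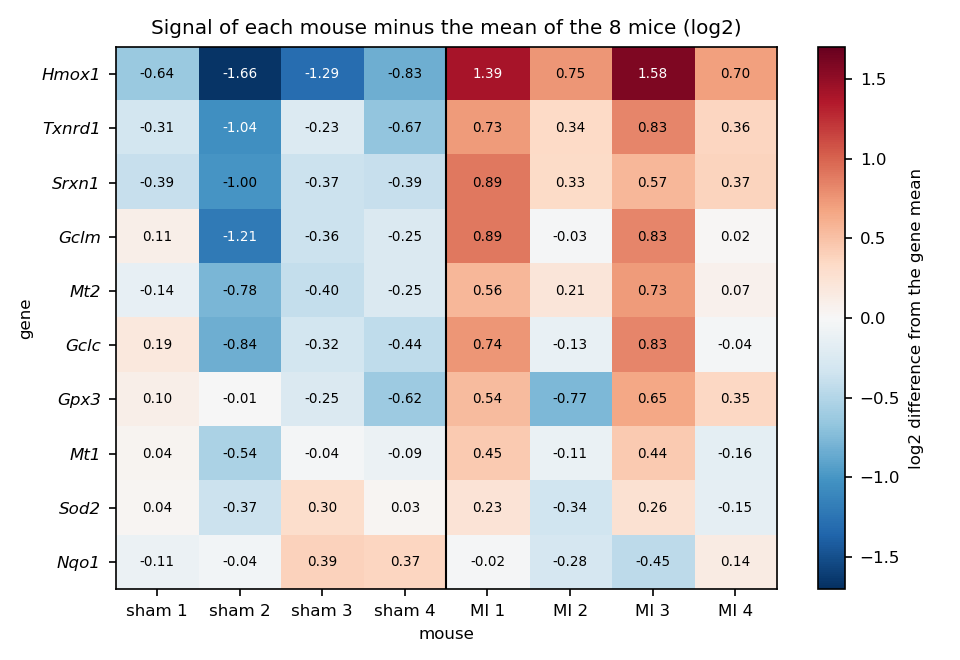
Log2 signal (spike-in scaling) of each mouse minus the mean of the 8 mice, for the 10 genes ordered by their difference; red is above and blue below the gene mean. MI replicates 1 and 3 are the highest in most rows, sham replicate 2 is the lowest for most genes, and Hmox1 spans -1.66 to 1.58.

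The genes with the pattern nearest to Hmox1, by the root mean square difference of centered log2 values over the 8 mice and among 14031 genes detected on all arrays, were Rin1 (0.17), Xirp1 (0.23), Clcf1 (0.25), Actn1 (0.25) and Itga5 (0.26). These 5 genes rose by 2.47, 1.89, 2.06, 2.01 and 2.51 on the log2 scale. The values were centered but not scaled, so genes near Hmox1 had to differ between the groups by a similar amount. The distances of genes with smaller differences, such as Txnrd1, reflect that as well. Txnrd1, at 0.60, was the nearest of the other 9 genes described here, and 311 genes lay closer to Hmox1. Nearest to Mt1 were 1700020L24Rik (0.06), Trit1 (0.06), Shroom1 (0.06), Pde6g (0.07) and Srl (0.07), none of which passed the test. Mt2, at 0.25, was farther from Mt1 than 4575 other genes. Spike-in scaled values keep the order of the mice that most retained probes shared. Its part in these distances was not tested, and nearness does not say that genes are regulated together.

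Markers of blood cells also moved between the groups. Of 10 neutrophil markers, 9 rose, with a median of 3.05 for the list, and Csf3r did not (0.09). Their summed intensity was between 208497 and 319133 in MI and between 62149 and 79036 in sham mice. S100a8 was 52421, 75900, 73933 and 43536 in MI replicates 1 to 4. The order of the MI mice differed between markers. MI replicates 2 and 3 were highest for S100a8, and MI replicates 3 and 4 for Mmp9. Of 9 monocyte and macrophage markers, Cd14 (2.27) and Ccr2 (1.23) rose, and the sums overlapped, between 20269 and 31449 in MI and between 17469 and 24891 in sham mice.

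Other marker lists moved less. Of 10 cardiomyocyte markers none passed, with a median of -0.06, nor did any of 7 fibroblast, 6 endothelial, 3 erythroid or 4 adipocyte markers, in limma or SAM. At an unadjusted p under 0.05, 1 cardiomyocyte and 1 fibroblast marker were lower and 1 endothelial marker was higher. Acta2 was the 1 of 5 smooth muscle markers that rose (1.47). Cd3d rose among 3 T cell markers (1.12), at low signal. The part of these cells in the differences of Hmox1, Srxn1 and Txnrd1 was not tested.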

How the data were processed

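RNA of the ventricles of 8 mice (4 MI, 4 sham) was measured with 1 array per mouse. The arrays shared 1 slide and 1 scan, and each of the 2 rows of the slide held 2 MI and 2 sham arrays. Groups came from the sample labels. The intensities that the authors deposited were processed by Feature Extraction 11.0.1.1, with local background subtracted and no normalization between arrays, and the median spot and local background intensities were used for normexp. The deposited log2 values of the authors had been normalized on spike-in probes with the limma and vsn packages, with spots not well above background removed. Set against the scanner signals they are log2 values with an additive constant of 3.16 to 19.6 for each array, they are not centered by gene, and their column medians lie between 7.48 and 8.07.

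Here, log2 processed signals without outlier-flagged spots were averaged by probe and shifted by the signal of 7 spike-in probes (234 spots, detected on every array). Refitting the vsn model gave constants of 166 to 257, about as large as the median signal of 195 of the retained probes, which shrinks fold changes, so it was kept as an alternative. Control probes were left out, and so was any probe flagged as well above background on under 4 arrays, which left 34038 probes. The share of spots with that flag was 58.6% to 66.4% per array. Precision is limited by the number of arrays.

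MI was compared with sham in limma 3.58.1 (R 4.3.3) without covariates, with Benjamini-Hochberg adjustment over the retained probes. Single values were compared by an exact two-sided permutation test. Tables used Python 3.11.15 with pandas 2.3.3. The fits were checked on simulated data. Symbols came from RefSeq accessions in the GRCm38.p6 annotation, while the array design names mm9, so the only coordinates given are those of the RefSeq promoter windows on GRCm38.p6. The genes named are all 10 members, the pathway genes past the threshold (at most 4 each way for a list), the 5 genes nearest in pattern to Hmox1 and to Mt1, and any other named gene was chosen after its values were seen. The members, the pathway lists and the marker lists were chosen with earlier results of these data known, and give no independent support. The result of 1 marker list is not reported here.

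Alternatives were the 75th percentile, the vsn refit, quantile normalization, the authors' values, normexp with an offset of 50, other detection filters, significance analysis of microarrays with all 70 label permutations, blocks for replicate number and row, each row alone, each mouse left out, and the mean of all probes of a gene. No scaling between arrays, and the other Hmox1 probe, were added after seeing the data.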

Additional observations from a re-analysis of the deposited data

Results flagged for a closer look

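Sham replicate 2 stood apart from the other sham mice for Srxn1, at 2102, where its gap to the next mouse was 0.964 of the whole range of the group. The same mouse stood apart for Slc3a2, at 4676, with a gap of 0.836 of the range. A value was listed when this share was above the 95% critical value of Dixon's test for 4 samples, and 28 groups of 14 genes were examined. Chance flags about 1 in 20 such groups. Sham replicate 2 also had the lowest 75th percentile of the 8 arrays after the spike-in shift (-0.38 on the log2 scale), and the part of this in both values was not tested.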

How the results depend on the processing

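Hmox1 was higher and past the threshold under all 24 alternatives run, between 2.03 and 2.38 on the log2 scale. Srxn1 passed under 19 of 23 and Txnrd1 under 20 of 23, always higher. Both missed the threshold with no filter on detection (1.08 and 1.13) and within row 1 (1.30 and 1.21) and row 2 (0.85 and 1.05) of the slide, where 2 mice a group remained, and Srxn1 did without MI replicate 1. Mt2 passed under 7 of 23, Gclm under 3 and Gclc under 2. Nqo1 was lower throughout and Mt1 higher throughout, neither ever past the threshold.

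Of the 10 genes, 3 passed with spike-in scaling. The number was 5 with the 75th percentile, 6 with normexp, 6 with the replicate block, 1 with no filter and 1 within each row, and 2 to 3 with each mouse left out. Over 2-fold it was 3, and 1 with no filter, 1 within each row and 1 to 3 with each mouse left out, 1 being without sham replicate 2. Of the pathway genes, 4 passed. The number was 15 with the 75th percentile, 19 with quantile normalization, 10 with normexp, 2 with no filter, 2 with significance analysis of microarrays, 14 with the replicate block, 2 with the row as a block, 1 and 0 within row 1 and row 2, 11 with no scaling and 2 to 8 with each mouse left out. Within row 2, where limma called none of the 67, 11 had an unadjusted p under 0.05. With normexp and within row 1, limma gave all 10 genes the same SE, 0.21 and 0.50 on the log2 scale. Calls among the 10 genes there followed the size of the difference alone.

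Of all probes, 1858 passed, and 1343 to 2253 with each mouse left out. The number was 5947 with the 75th percentile, 6173 with quantile normalization, 2109 with normexp and 1455 with significance analysis of microarrays. It was 1008 with no filter, 4308 with the replicate block, 538 and 475 within the rows and 2914 with no scaling. Over 2-fold, 1520 passed, and 333 with the vsn refit, 1007 in the authors' values, 610 with normexp, 992 with no filter and 538 and 475 within the rows.

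Sod2 changed sign, to 0.0003 with the vsn refit, 0.0224 with normexp, 0.11 within row 1, 0.17 with no scaling and as far as 0.11 with a mouse left out (lowest -0.12), and Gpx3 was at -0.16 within row 1 and 0.94 within row 2. The replicate numbers did not pair the mice: the correlation of same-numbered deviations from the group means was 0.25, 0.09, -0.07 and 0.01 for numbers 1 to 4. The causes of these differences were not tested.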
